A study of Homo sapiens with 6 samples.

Results

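The nuclear receptor genes examined here were 46 members of the superfamily. They were chosen by gene symbol and by no rule on measured values, though earlier results of these data were known. All 46 were found among the 25277 gene rows of an RNA-seq table. The table holds 6 libraries, 3 each of the cell lines Jeko and Rec-1, which were derived from human mantle cell lymphoma, a B-cell cancer. Each line was a stable line carrying Cas9 and a tet-on vector, and all libraries, controls included, were taken 48 h after doxycycline. The control of a line held the empty vector (1 library each), and the other libraries held a guide RNA (sgRNA) against NR4A1, with 1 library for sgRNA 1 and 1 for sgRNA 2 in each line. Nothing in the labels says that libraries came from separate cultures, so p-values measure only the spread between these libraries. Values are FPKM, fragments scaled to transcript length and to the library's mapped fragments, and within a line they are given in the order control, sgRNA 1, sgRNA 2.

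Nuclear receptors are transcription factors with a zinc-finger DNA-binding domain and a ligand-binding domain, and many are switched by steroids, retinoids, thyroid hormone, fatty acids or sterols. Retinoid X receptors (RXRs) are the shared dimer partner of the retinoic acid, thyroid hormone, vitamin D, PPAR and LXR receptors. NR4A1, NR4A2 and NR4A3 are orphan receptors made as immediate early genes, also after stimulation of the B-cell antigen receptor. They bind DNA as monomers or dimers, and NR4A1 and NR4A2 can also pair with RXR.

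NR4A1, the targeted gene, and its paralog NR4A3 are shown by the 250 bases upstream of annotated starts. Whether their induction by signalling runs through these windows was not tested, and any other starts of NR4A1 were not examined. The sequences are RefSeq's on GRCh38.p14, all on the plus strand, at chr12:52022582-52022831 and chr12:52037465-52037714 for NR4A1 and chr9:99821635-99821884 for NR4A3. Capitals mark TGACG or its reverse complement CGTCA, the core letters of the cAMP response element bound by CREB.
NR4A1 start 1: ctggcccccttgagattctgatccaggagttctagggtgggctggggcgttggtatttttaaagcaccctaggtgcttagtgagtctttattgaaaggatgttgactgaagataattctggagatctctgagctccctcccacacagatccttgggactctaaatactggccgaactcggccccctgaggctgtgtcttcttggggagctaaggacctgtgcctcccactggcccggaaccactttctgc
NR4A1 start 2: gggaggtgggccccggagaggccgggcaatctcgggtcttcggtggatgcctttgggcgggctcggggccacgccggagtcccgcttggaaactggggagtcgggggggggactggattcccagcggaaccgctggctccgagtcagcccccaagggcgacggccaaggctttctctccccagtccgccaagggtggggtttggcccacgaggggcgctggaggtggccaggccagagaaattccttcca
NR4A3: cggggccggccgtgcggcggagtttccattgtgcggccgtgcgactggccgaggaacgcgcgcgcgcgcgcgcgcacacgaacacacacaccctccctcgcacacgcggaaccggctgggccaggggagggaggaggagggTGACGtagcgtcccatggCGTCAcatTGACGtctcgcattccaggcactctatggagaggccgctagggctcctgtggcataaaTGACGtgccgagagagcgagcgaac
The NR4A3 window held 4 matches and both NR4A1 windows held 0. TGACG stood on either strand in 21.2% of 35116 promoter windows of this length and in 16 of the 96 windows of the 41 receptor genes matched by symbol. AGGTCA, the core letters bound by many nuclear receptors, was in none of the 3 windows shown, in 15 of the 96 and in 12.1% of all windows. AAAGGTCA, the NR4A monomer site, which contains AGGTCA, was in 3 of the 96 (ESRRG, NR2E1 and PPARG) and in 1.05% of all windows. A match is a description of letters only.

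A gene was counted as expressed at 1 FPKM or more in any library. By that measure 21 of the 46 receptors, or 45.7%, were expressed, against 48.7% of all genes in the table. The number at 1 FPKM or more was 15, 14 and 16 in the Jeko libraries and 16, 18 and 20 in those of Rec-1, and 13 receptors reached it in all 6 libraries. A further 9 receptors had values above 0 but under 1 FPKM throughout (NR4A2, NR4A3, RARB, VDR, RORA, HNF4A, NR2E1, NR3C2 and NR5A2). The remaining 16 were listed at 0 in all 6 libraries, or 34.8% against 26.9% of all genes. They were RXRB, RXRG, THRB, PPARG, RORB, NR1H4, NR1I2, HNF4G, NR2E3, NR2F2, ESRRB, ESRRG, PGR, NR5A1, NR0B1 and NR0B2.

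**Figure D1:**
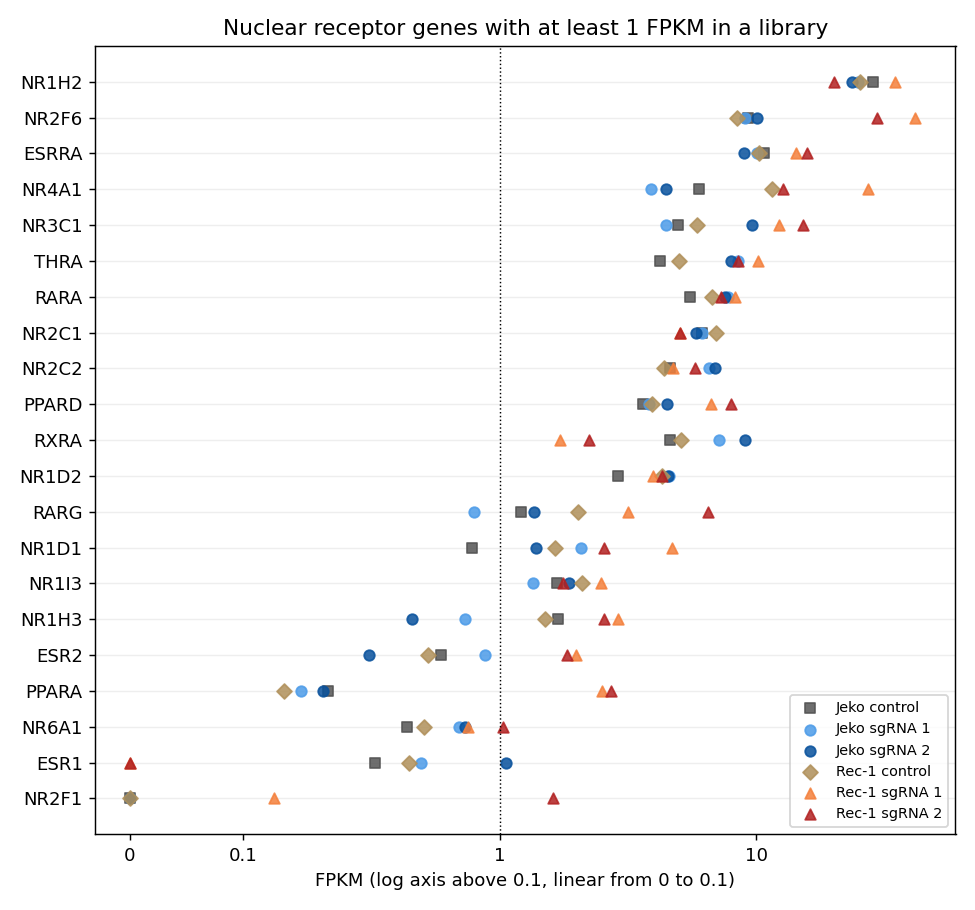
FPKM of the 21 expressed receptors, 1 row a gene and 1 point a library, on an axis that is linear from 0 to 0.1 FPKM and logarithmic above, with a dotted line at 1 FPKM; at NR2F1 the 4 libraries at 0 and at ESR1 the Rec-1 sgRNA libraries at 0 lie on top of each other. NR1H2, NR2F6, ESRRA, NR4A1 and NR3C1 have the highest means, and at PPARA only the Rec-1 sgRNA libraries pass the dotted line.

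The sgRNA libraries of Rec-1 stood apart from all others, and the library labelled Rec-1 control did not stand with them. Over 9702 protein-coding genes its Pearson correlation was 0.989 with the Jeko control, against 0.805 with Rec-1 sgRNA 1 and 0.812 with Rec-1 sgRNA 2. CCND1, the cyclin gene that defines mantle cell lymphoma, was at 598, 815 and 442 FPKM in Jeko and 495 in the Rec-1 control, but under 1 FPKM in those labelled Rec-1 sgRNA (0.696 and 0.592). The summed level of 6 B-cell markers was between 584 and 877 FPKM in the other 4 libraries, against 915 and 1032 for Rec-1 sgRNA. The 4 T-cell markers summed to between 2.11 and 5.44 FPKM against 102 and 120, where CD3D was at 66.3 and 95.3 and CD2 at 0.0288 and 0. The 17 receptors tested below showed the same order. Their mean absolute difference on the log2(FPKM + 1) scale was 0.24 between the 2 controls, 0.24 between the 2 Jeko sgRNA libraries and 0.35 between those of Rec-1, but 0.71 and 0.62 between the Rec-1 control and Rec-1 sgRNA 1 and 2. For 12 of these 17 both Rec-1 sgRNA values lay outside the range of the 3 Jeko libraries, against 59.5% of all genes tested. At 11 of the 17 the Rec-1 control was also nearer to Jeko, against 51.5% of all genes tested. Among the 12 separated receptors NR4A1 was the exception. Of the 6782 genes separated in this way, 5872 had the Rec-1 control nearer to Jeko. A difference between the Rec-1 control and the Rec-1 sgRNA libraries, and any difference that uses this control, therefore cannot be told apart from a difference between cell populations, and sample names below are those of the labels.

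The NR4A1 gene spans chromosome 12, 52416616 to 52453291, plus strand, in GRCh37. Its level was 5.99, 3.89 and 4.44 FPKM in Jeko and 11.6, 27.4 and 12.7 FPKM in Rec-1. The Jeko sgRNA libraries were thus the 2 lowest of the 6, at 64.9% and 74.1% of their control, whereas those labelled Rec-1 sgRNA were the 2 highest, at 237% and 110% of theirs. The Rec-1 control and Rec-1 sgRNA 2 differed less from each other than the 2 Rec-1 sgRNA libraries did. The mean of the 4 differences from the own-line control was 0.10 on the log2(FPKM + 1) scale (SD 0.76 over 4 differences), and its two-sided p was 0.889 by an exact permutation test, whose 9 arrangements allow no p under 0.111. This mean was −0.44 without the Rec-1 control, which leaves Jeko alone, and −0.25 without Rec-1 sgRNA 1. Cas9 cutting need not lower the amount of a transcript, so FPKM does not show whether the gene was edited, and NR4A1 gives no check of the sgRNA labels in Rec-1. In bulk RNA, fewer cells with a transcript and less of it per cell cannot be told apart.

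NR4A2 and NR4A3, the paralogs of NR4A1, were under 1 FPKM in every library. NR4A2 was at 0.0929, 0.0799 and 0.0527 FPKM in Jeko and 0.0950, 0.197 and 0.203 in Rec-1. NR4A3 was at 0.0356, 0.0408 and 0.0452 FPKM in Jeko and 0.0388, 0.460 and 0.425 in Rec-1. For both genes the 2 libraries labelled Rec-1 sgRNA were the highest and did not overlap the other 4. Under the assumption that the authors' FPKM are whole fragments, the smallest whole numbers within 1% of the ratios between libraries were 8, 6 and 5 fragments of NR4A2 in Jeko, 9 in the Rec-1 control and 12 in Rec-1 sgRNA 2. For NR4A3 they were 5, 5 and 7 in Jeko, 6 in the Rec-1 control and 41 in Rec-1 sgRNA 2. If those are the true numbers, the Jeko control and sgRNA libraries differed by 3 fragments or fewer for either paralog. Numbers this low would not show a small change or a decrease in Jeko. A rise as large as that of NR4A3 from the Rec-1 control to Rec-1 sgRNA 2 was not seen there. For all 3 genes the mean of the Rec-1 sgRNA libraries was above that of the Jeko sgRNA libraries, 4.82-fold for NR4A1, 3.01-fold for NR4A2 and 10.3-fold for NR4A3.

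**Figure D2:**
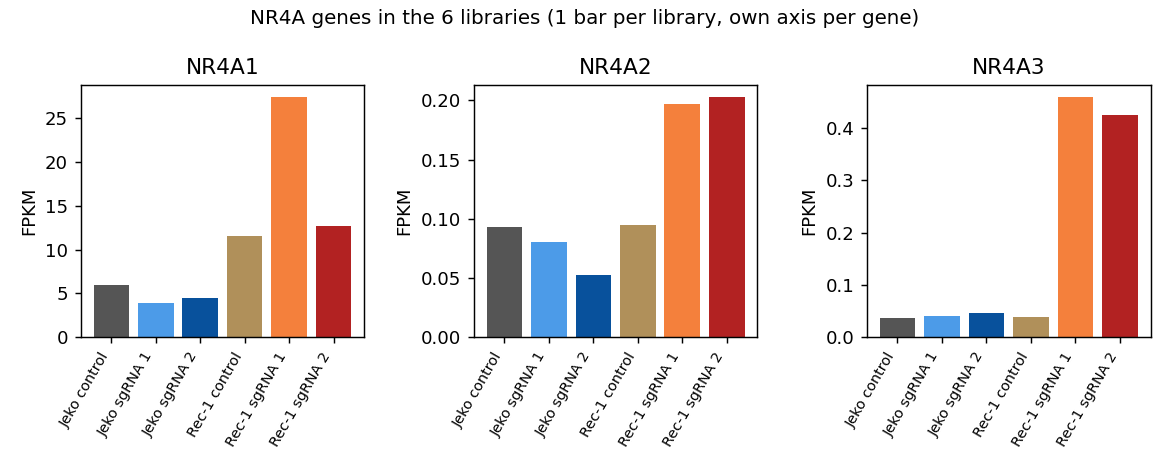
FPKM of NR4A1, NR4A2 and NR4A3 in each of the 6 libraries, 1 bar a library and 1 panel a gene, with axes that start at 0 and differ between panels. All 3 genes are highest in the libraries labelled Rec-1 sgRNA, at 12.7 FPKM or more for NR4A1 and at 0.460 FPKM or less for its paralogs.

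RXRA was the RXR gene with values in these cells. It lies on chromosome 9 from 137208944 to 137332431 (GRCh37), and was at 4.61, 7.16 and 9.04 FPKM in Jeko and 5.07, 1.71 and 2.24 FPKM in Rec-1. Both Jeko sgRNA libraries were above and both Rec-1 sgRNA libraries below either control, and the controls were close to each other. Relative to the own-line control this was 155% and 196% in Jeko, against 33.7% and 44.1% in Rec-1. RXRG was listed at 0, and so was RXRB. RXRB lies on chromosome 6 from 33161365 to 33168442 (GRCh37) beside the class II HLA genes, and 10 of the 11 other protein-coding genes within 100 kb were also listed at 0 in all 6 libraries. Among them were RPS18, a ribosomal protein gene, and TAPBP, which loads peptide onto HLA class I, both used by nearly all cells. The 0 of RXRB may therefore be a failed estimate and is no sign that the gene was silent.

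Differences were tested with limma on log2(FPKM + 1) over the 11400 genes whose mean was 1 FPKM or more, and an adjusted p under 0.05 counted as a call. This filter admitted 17 receptors, and ESR1, NR2F1, NR6A1 and PPARA were expressed in some library but fell short of it. Across both lines, with 4 sgRNA against 2 control libraries, limma called 0 of the 17, against 0.246% of all genes tested. At an unadjusted p under 0.05 the count was 1, THRA, against 21.1% of all genes. NR4A1 differed by 0.10 (SE 0.39, limma adjusted p = 0.882) and RXRA by −0.17 (SE 0.42, limma adjusted p = 0.811). Both signs turned when libraries were left out, NR4A1 to −0.44 and RXRA to 0.69 without the Rec-1 control, and to −0.20 and 0.01 without Rec-1 sgRNA 1. Without the Jeko control the estimate comes from Rec-1 alone, and limma then called NR2F6 and 2180 genes in place of 28. The receptors' median difference was 0.30, beside 0.01 for all genes tested.

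Within Jeko, limma called 0 of 17 receptors, against 0.439% of all genes, and at an unadjusted p under 0.05 the count was 4 (NR1D2, NR1H3, RXRA and THRA) against 11.3%. NR4A1 differed by −0.44 (SE 0.49, limma adjusted p = 0.748) and RXRA by 0.69 (SE 0.24, limma adjusted p = 0.439). NR1H3, the liver X receptor (LXR) alpha gene, was at 1.68, 0.731 and 0.456 FPKM and was the 1 receptor at least 2-fold from the control in both Jeko sgRNA libraries, against 6.06% of all genes tested. Its difference was −0.76 (SE 0.20, limma adjusted p = 0.397). The receptors' median difference was 0.04, beside 0.00 for all genes tested. Over 10322 genes the Jeko differences rose with transcript length (Spearman correlation 0.469, and 0.252 for the differences across both lines). After an adjustment for length the receptors' median in Jeko was 0.16, and 12 of the 17 were higher in place of 9. With 1 control library, the spread in these tests comes from the pairs of sgRNA libraries.

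Within Rec-1, limma called 1 of 17 receptors, NR2F6, against 19.2% of all genes, and 6 had an unadjusted p under 0.05, against 38.6%. Without the filter limma called 5 of 30 receptors, beside 2313 of 18470 genes. They were NR2F6, PPARA, NR3C2 and the paralog NR4A3, which were higher, and VDR, which was lower. NR4A3 was under 1 FPKM throughout, at 1185% and 1095% of the Rec-1 control. NR2F6, an orphan receptor of the COUP-TF group that restrains lymphocyte activation, lies on chromosome 19 from 17342692 to 17356728 (GRCh37) and was at 8.45, 41.8 and 29.6 FPKM. In Jeko it was at 9.28, 9.06 and 10.1 FPKM, so the libraries labelled Rec-1 sgRNA lay above the other 4 and those 4 lay close together. The difference from the Rec-1 control was 1.94 (SE 0.29, limma adjusted p = 0.0230). With 1 library left out, the limma adjusted p was 0.0882 without Jeko sgRNA 1, 0.0883 without Jeko sgRNA 2, 0.0925 without Rec-1 sgRNA 1 and 0.0678 without Rec-1 sgRNA 2, each leaving 1 residual degree of freedom. RXRA differed by −1.04 (SE 0.24, limma adjusted p = 0.0570) and NR4A1 by 0.65 (SE 0.49, limma adjusted p = 0.391). An adjustment for transcript length moved RXRA past the threshold, to −1.13 with a limma adjusted p of 0.0344. The receptors' median difference was 0.57, beside 0.00 for all genes tested, and T-cell marker levels and CCND1 moved with this comparison as given above; their part in it was not tested.

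On the FPKM scale, 4 of the 17 receptors were at least 2-fold from the Rec-1 control in both Rec-1 sgRNA libraries, against 28.1% of all genes. They were NR2F6, ESR2 and NR3C1, which were higher, and RXRA, which was lower. NR3C1, the glucocorticoid receptor, through which glucocorticoids kill lymphoid cells, was at 4.97, 4.47 and 9.62 FPKM in Jeko and 5.88, 12.3 and 15.2 FPKM in Rec-1. The Jeko sgRNA libraries thus lay on both sides of their control, and the range of the Rec-1 sgRNA libraries lay above all others. Its difference in Rec-1 was 1.09 (SE 0.465, limma adjusted p = 0.173). ESR2, estrogen receptor beta, was at 0.587, 0.878 and 0.308 FPKM in Jeko and 0.523, 1.98 and 1.84 FPKM in Rec-1, and differed there by 0.93 (SE 0.27, limma adjusted p = 0.0867). Neither passed the test with all libraries in the fit. ESR2 was at 0.878 FPKM or less outside the Rec-1 sgRNA libraries and met the filter, with a mean of 1.02 FPKM, only through them. A higher level there was thus a condition of its being tested. ESR2 had a limma adjusted p of 0.0425 without Jeko sgRNA 1 and 0.0462 without Jeko sgRNA 2, the fits in which the NR2F6 call was lost.

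**Figure D3:**
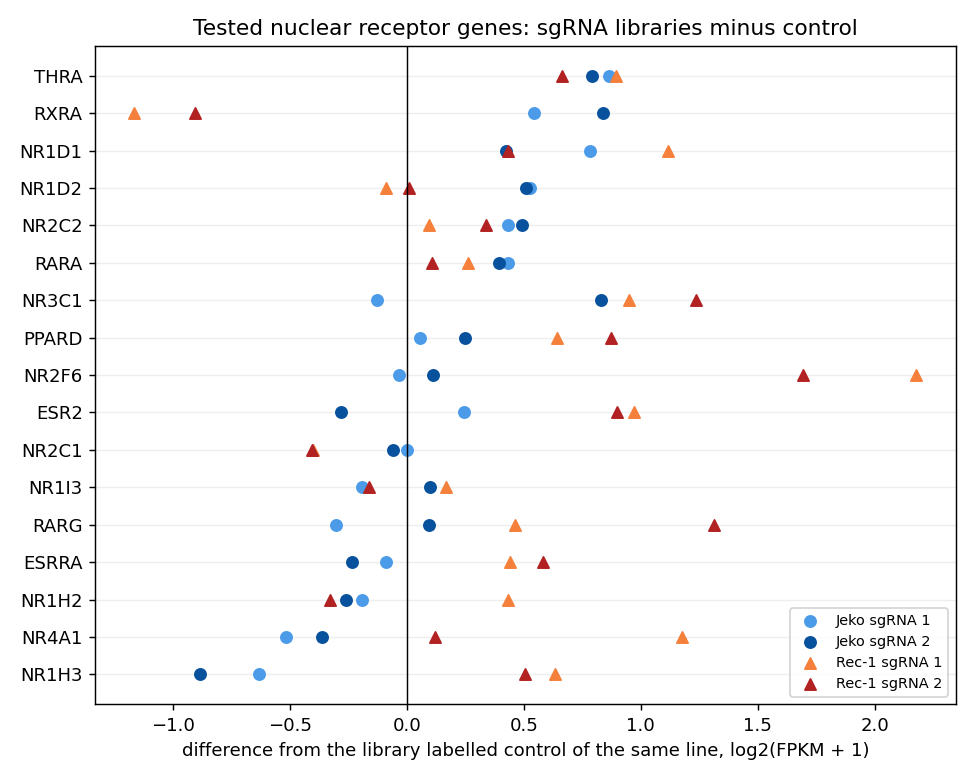
Difference from the own-line control on the log2(FPKM + 1) scale for the 17 receptors tested, 1 point for each sgRNA library (circles for Jeko, triangles for Rec-1); the line at 0 is the control. NR2F6 is near 0 in Jeko and between 1.69 and 2.18 in Rec-1, and RXRA lies on opposite sides of 0 in the lines.

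Whether a difference from control differed between the lines was tested as the interaction of line and sgRNA. Limma called 0 of 17 receptors, against 6.94% of all genes, and at an unadjusted p under 0.05 the count was 3 (NR1H3, NR2F6 and RXRA) against 21.9%. Without the filter 3 of 30 receptors were called (NR4A3, PPARA and VDR), beside 793 of 18470 genes. In simulated data each size of change was given to 100 of 11400 genes. There this test recovered 1% of changes of 2 on the log2 scale and 59% of changes of 4. With so few changed genes the adjusted threshold was stricter than in the data, where 791 genes were called. Interactions near 2 could pass in the data, as that of EGR2 did at −2.20 (limma adjusted p = 0.0285). The simulated rates therefore do not give the power here. With 1 control library a line, a missing call does not decide whether the lines differ. RXRA had an interaction of −1.73 (SE 0.34, limma adjusted p = 0.0763), and that of NR4A1 was 1.09 (SE 0.69, limma adjusted p = 0.438). At 4 receptors both sgRNA libraries of Jeko lay on one side of their control and both of Rec-1 on the other, NR4A1, NR1H3, ESRRA and RXRA, against 20.7% of all genes tested. At 5 receptors all 4 sgRNA libraries were above their own control (THRA, NR1D1, RARA, PPARD and NR2C2), against 21.0% of all genes, and at 0 receptors were all 4 below it, against 21.1%.

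The comparison of Rec-1 sgRNA with Jeko sgRNA libraries, 2 against 2, uses neither control. Limma called 4 of 17 receptors, against 25.9% of all genes, with 3 higher in Rec-1 (12.8% of all genes) and 1 lower (13.0% of all genes). At an unadjusted p under 0.05 the count was 8, against 42.3%. NR4A1 was higher by 1.94 (SE 0.40, limma adjusted p = 0.0381), NR2F6 by 1.78 (SE 0.24, limma adjusted p = 0.0144) and NR1H3 by 1.23 (SE 0.16, limma adjusted p = 0.0140). RXRA differed by −1.61, lower in Rec-1 (SE 0.20, limma adjusted p = 0.0121). As ratios of mean FPKM, Rec-1 sgRNA was above Jeko sgRNA 4.82-fold for NR4A1, 3.73-fold for NR2F6 and 4.59-fold for NR1H3, and Jeko sgRNA was above Rec-1 sgRNA 4.10-fold for RXRA. The ranges of the 2 groups did not overlap at 14 of the 17 receptors, against 69.9% of all genes tested. The median difference was 0.61 over the receptors and −0.03 over all genes tested. CCND1 and the T-cell markers differed between the same libraries, and their part in these differences was not tested.

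These calls rest on 4 libraries. Leaving out Jeko sgRNA 1, Jeko sgRNA 2, Rec-1 sgRNA 1 or Rec-1 sgRNA 2 in turn gave limma adjusted p-values of 0.199, 0.160, 0.0900 and 0.0424 for NR4A1 and 0.0681, 0.0735, 0.0990 and 0.0736 for RXRA. In the same order they were 0.0451, 0.0588, 0.0830 and 0.0686 for NR1H3 and 0.113, 0.0908, 0.0830 and 0.0542 for NR2F6. Every one of these differences kept its direction. With all 18470 genes above 0 in any library tested, the limma adjusted p of NR4A1 was 0.0778, and those of RXRA, NR1H3 and NR2F6 stayed under 0.05. That fit also admits the receptors under the filter. It gave differences of 0.47 for NR4A3 (limma adjusted p = 0.00692) and 0.17 for NR4A2 (limma adjusted p = 0.0288), small on this scale because both genes lie far under 1 FPKM.

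**Figure D4:**
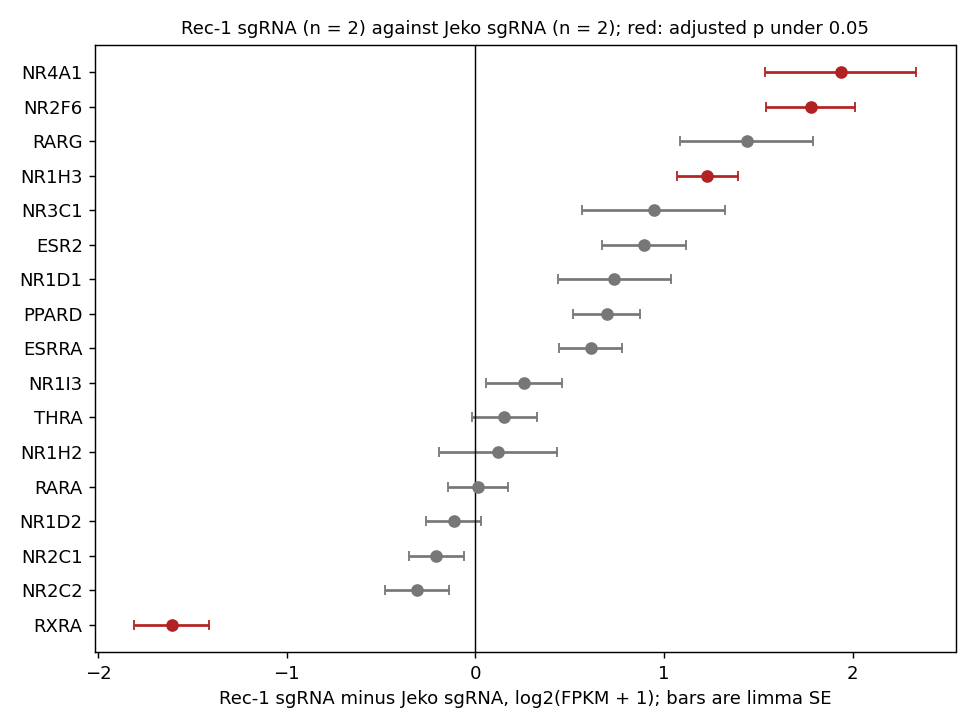
Difference between the Rec-1 sgRNA and Jeko sgRNA libraries (2 against 2) on the log2(FPKM + 1) scale for the 17 receptors tested, with limma SE as bars and red for an adjusted p under 0.05. NR4A1, NR2F6 and NR1H3 lie to the right at 1.23 or more and RXRA to the left at −1.61.

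The receptors that pair with RXR followed no common order. RARA, retinoic acid receptor alpha, was at 5.53, 7.80 and 7.58 FPKM in Jeko and 6.71, 8.25 and 7.30 FPKM in Rec-1, so every sgRNA library was above its control and the lines overlapped. RARG, retinoic acid receptor gamma, was at 1.21, 0.794 and 1.36 FPKM in Jeko and 2.02, 3.15 and 6.49 FPKM in Rec-1, where all libraries were above all of Jeko. RARB stayed between 0.0943 and 0.223 FPKM.

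THRA, thyroid hormone receptor alpha, was at 4.22, 8.49 and 8.02 FPKM in Jeko and 5.004, 10.1 and 8.50 FPKM in Rec-1. The 4 sgRNA libraries lay above both controls without overlap, at 201%, 190%, 203% and 170% of the own-line control, and this was the 1 receptor of the 17 with an unadjusted p under 0.05 across both lines, named after its values were seen. Its difference was 0.80 (SE 0.17, unadjusted p = 0.0042 and adjusted p = 0.169 by limma). THRA (chromosome 17, 38214543 to 38250120, plus strand, GRCh37) and NR1D1 (38249046 to 38256842, minus strand) overlap by 1075 bases at their ends. Whether the authors' counting used strand is not given in the sources used here, and without strand the reads of the overlap cannot be told apart. NR1D1, the heme-binding clock repressor REV-ERB alpha, was at 0.782, 2.07 and 1.39 FPKM in Jeko and 1.64, 4.72 and 2.56 FPKM in Rec-1, or between 156% and 288% of the own-line control.

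PPARD, a fatty acid sensor, was at 3.63, 3.81 and 4.50 FPKM in Jeko and 3.92, 6.68 and 8.01 FPKM in Rec-1, with the Rec-1 sgRNA libraries above the other 4. PPARA, which drives fatty acid oxidation, was at 0.214, 0.168 and 0.205 FPKM in Jeko and 0.144, 2.51 and 2.71 FPKM in Rec-1. It was thus expressed in the Rec-1 sgRNA libraries and in no other, 14.0-fold above the mean of the Jeko sgRNA libraries, and in the fit without the filter the difference was 1.60 (limma adjusted p = 0.00639). VDR, the vitamin D receptor, went the other way, at 0.313, 0.458 and 0.481 FPKM in Jeko and 0.545, 0.0188 and 0.0506 FPKM in Rec-1.

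The liver X receptors sense oxysterols. NR1H2, LXR beta, held the highest level of any receptor in the other 4 libraries, where NR1H2 was at 28.6, 25.0 and 23.7 FPKM in Jeko and 25.5 in the Rec-1 control. It was at 34.8 and 20.1 FPKM in the Rec-1 sgRNA libraries, where NR2F6 stood above it, and the groups overlapped. NR1H3, LXR alpha, was at 1.51, 2.89 and 2.56 FPKM in Rec-1, so its Jeko sgRNA libraries were the 2 lowest of the 6 and its Rec-1 sgRNA libraries the 2 highest. NR1I3, the xenobiotic receptor CAR, was between 1.35 and 2.48 FPKM, and the groups overlapped.

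Among orphan and clock receptors, NR1D2 (REV-ERB beta) was at 2.88, 4.60 and 4.53 FPKM in Jeko and 4.28, 3.96 and 4.32 FPKM in Rec-1, so only the Jeko control stood apart. NR2C1, a testicular orphan receptor, was at 6.13, 6.14 and 5.85 FPKM in Jeko and 6.99, 5.06 and 5.04 FPKM in Rec-1. Its relative NR2C2 was at 4.61, 6.58 and 6.90 FPKM in Jeko and 4.37, 4.73 and 5.79 FPKM in Rec-1. Both had slightly lower values in the Rec-1 sgRNA than in the Jeko sgRNA libraries, and neither passed a test.

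NR2F1, the COUP-TF I gene, was listed at 0 in all libraries but Rec-1 sgRNA 1 (0.132 FPKM) and Rec-1 sgRNA 2 (1.61 FPKM). NR6A1, germ cell nuclear factor, was between 0.435 and 1.03 FPKM and reached 1 FPKM only in Rec-1 sgRNA 2. RORA was between 0.0148 and 0.0212 FPKM. HNF4A reached 0.351 FPKM in Jeko sgRNA 2 and was under 0.01 FPKM elsewhere, NR2E1 was above 0 only in the Rec-1 sgRNA libraries (0.0181 and 0.0233 FPKM), and NR5A2 only in the Rec-1 control (0.00768 FPKM).

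Of the steroid receptor group, ESRRA, an estrogen-related receptor that acts on mitochondrial genes, was at 10.7, 10.1 and 8.99 FPKM in Jeko and 10.3, 14.3 and 15.8 FPKM in Rec-1, with the Rec-1 sgRNA libraries above the other 4. ESR1, estrogen receptor alpha, was at 0.327, 0.493 and 1.06 FPKM in Jeko and 0.443 FPKM in the Rec-1 control, and was listed at 0 in both Rec-1 sgRNA libraries. The estrogen receptors thus had opposite orders between the lines' sgRNA libraries, with ESR2 higher in Rec-1. NR3C2, the mineralocorticoid receptor, was at 0.0217, 0.0166 and 0.0722 FPKM in Jeko and 0.0394, 0.537 and 0.485 FPKM in Rec-1, 11.5-fold above the Jeko sgRNA mean in the Rec-1 sgRNA libraries.

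Cofactors and response genes of the receptors were read from lists, each described by its counts in the comparison of Rec-1 sgRNA with Jeko sgRNA libraries, where 25.9% of all genes were called. Of the 18 coactivators 16 were tested, and limma called 2 higher and 3 lower. NCOA1, the steroid receptor coactivator SRC-1, was higher by 1.89, and CREBBP, the CBP acetyltransferase, differed by −1.51. Of 14 corepressors 12 were tested and 1 was called, BCOR, higher by 4.22, which was at 0.113 FPKM or less in the other 4 libraries and at 16.3 and 21.0 FPKM in the Rec-1 sgRNA libraries.

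Response genes of the receptors were called in both directions. Of 16 chaperones and response genes of the glucocorticoid receptor 14 were tested, and 1 was called higher and 5 lower, with a median difference of −0.57. BCL2L11, the BIM gene of glucocorticoid-induced death, was higher by 3.51, and CXCR4, a homing receptor, and NFKBIA, the NF-kB inhibitor, differed by −2.71 and −2.48. Among 9 LXR response genes 7 were tested, with the apolipoprotein gene APOC1 (3.33) and the desaturase gene SCD (2.31) called higher and the cholesterol exporter ABCA1 (−1.17) called lower. Of 16 clock genes 9 were tested, with NPAS2 (2.41) called higher and CLOCK (−0.80) lower, and of 7 vitamin D genes 3 were tested, with CAMP (3.81) called higher. Limma called 0 of 7 tested among 12 PPAR response genes and 0 of 2 tested among 14 retinoid genes, and at an unadjusted p under 0.05 the count was 1 in each list. The CLOCK call was narrow (limma adjusted p = 0.0476) and was lost with a pseudocount of 0.1 (0.0596), library-median scaling (0.0509), length adjustment (0.0939), no filter (0.0723) or no trend (0.0561). With any 1 of the 4 sgRNA libraries left out, limma adjusted p-values were between 0.0601 and 0.177 for CLOCK, 0.0705 and 0.126 for NCOA1, 0.0668 and 0.0830 for CREBBP and 0.106 and 0.183 for SCD. Among those 4 fits NFKBIA kept its call without Rec-1 sgRNA 2 and otherwise reached 0.0680 to 0.102, and ABCA1 kept it without Jeko sgRNA 1 and otherwise reached 0.0615 to 0.167. APOC1 reached 0.0573 without Jeko sgRNA 1 and 0.0560 without Jeko sgRNA 2. Without the filter NCOA1 (0.0556), SCD (0.0909) and ABCA1 (0.0679) were not called, and SCD was not called with a pseudocount of 0.1 (0.0508) or a minimum mean of 5 FPKM (0.0556). BCOR, BCL2L11, CXCR4, NPAS2 and CAMP kept theirs in each of these fits that tested them. Outside the Rec-1 sgRNA libraries BCOR, BCL2L11, APOC1, NPAS2 and CAMP were at 0.602 FPKM or less. They met the filter only through the Rec-1 sgRNA libraries, so a high level there was a condition of their test in the main fit.

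Immediate early genes, which share inducing signals with NR4A1, were the 1 list with calls in Jeko. Limma called 2 of 8 tested genes there, against 0.439% of all genes, both higher in the sgRNA libraries, EGR1 by 3.44 (limma adjusted p = 0.0346) and FOS by 3.08 (limma adjusted p = 0.0200), whereas the NR4A1 values of both sgRNA libraries lay under the control. Without the filter on low genes these limma adjusted p-values were 0.0950 and 0.0722, and with any 1 of the 4 sgRNA libraries left out they were between 0.185 and 0.371 for EGR1 and between 0.186 and 0.233 for FOS. EGR1 was at 2.12, 33.7 and 32.0 FPKM in Jeko and 25.7, 7.96 and 5.95 FPKM in Rec-1. For EGR1 and FOS the Jeko control was the lowest of all libraries, so both calls rest on 1 low control library. FOS was at 1.05, 17.3 and 15.4 FPKM in Jeko and 19.1, 1.47 and 1.56 FPKM in Rec-1. In Rec-1 limma called 0 of the 8 higher and 5 lower, against 19.2% of all genes in either direction.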

How the data were processed

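The 6 libraries were prepared with an Illumina TruSeq RNA kit from total RNA. The authors deposited 1 table of FPKM per gene symbol, per the file headers. TopHat and the build hg19 are named in the submitters' processing notes. The program that computed FPKM, the annotation, the use of strand and the read numbers are not given in the sources used here, so absolute depth is unknown. Depth relative to the Jeko control, from the spacing of low values, was 0.872 (Jeko sgRNA 1), 1.10 (Jeko sgRNA 2), 1.10 (Rec-1 control) and 0.687 (Rec-1 sgRNA 2). Rec-1 sgRNA 1 had no common spacing (4 of 562 genes). No counting interval was computed.

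Columns were matched to samples by line and guide number. Values were analysed as log2(FPKM + 1), which understates changes of low genes. Limma 3.58.1 in R 4.3.3 (eBayes with trend) was fitted to the 11400 genes whose mean was 1 FPKM or more, with Benjamini-Hochberg adjustment over all of them and a threshold of 0.05. NR4A1 was also put to a two-sided exact permutation test. Fits were tested on simulated data, where each size of change was given to 100 genes. Changes of 2 on the log2 scale were recovered for 80% across both lines, 55% in Jeko and 64% in Rec-1. Between the sgRNA libraries recovery was 58%, and for the interaction 1%. Few genes were changed, and for the fit over both lines the simulated lines responded alike. These rates therefore do not give the power in the data, where a response that differs between lines adds to the spread of that fit. Its SE was 0.42 for RXRA, beside 0.24 within either line, and 0.39 for NR4A1, beside 0.49. The fit over both lines had the line as covariate, and the other contrasts came from a fit of the 4 group means. FPKM folds against control and counts of direction are descriptions. Positions are from GENCODE on GRCh37 and promoters from RefSeq on GRCh38.p14, where NR4A2, NR2F6, VDR, HNF4G and NR0B2 were not matched. Python 3.11.15, pandas 2.3.3 and scipy 1.17.1 served for the rest.

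The receptors and the lists were chosen with earlier results of these data known. By rule, every receptor is accounted for, and tests are printed for NR4A and RXR genes, called receptors and those at least 2-fold from control in both guides. At most 4 genes of a list are named, by size. Some genes are not reported here by name. Alternatives were the pseudocount, scaling, transcript length, the filter, the trend, the guide number as a block and each library left out.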

Additional observations from a re-analysis of the deposited data

Results flagged for a closer look

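At 4 of the 17 receptors tested both sgRNA libraries of Jeko lay on one side of the Jeko control and both of Rec-1 on the other. This was 23.5% of the receptors, near the 20.7% of all genes tested. The interaction of line and sgRNA on the log2(FPKM + 1) scale was 1.09 for NR4A1 (SE 0.69, limma adjusted p = 0.438), which was lower in Jeko and higher in Rec-1. It was 1.33 for NR1H3 (SE 0.28, limma adjusted p = 0.0866) and 0.67 for ESRRA (SE 0.29, limma adjusted p = 0.290), with the same order. After an adjustment for transcript length the Jeko difference of ESRRA turned from −0.16 to 0.05, so its order depends on that setting. For RXRA the interaction was −1.73 (SE 0.34, limma adjusted p = 0.0763), higher in Jeko and lower in Rec-1. None of the 4 passed the threshold, and all of them use the Rec-1 control, which resembled Jeko more than Rec-1 sgRNA. On simulated data with fewer changed genes than were called in the data, the interaction test recovered 1% of changes of 2 on the log2 scale. That rate does not give the power here. With 1 control library a line, the lack of a call does not decide whether the lines differ.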

How the results depend on the processing

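Of the receptor tests printed, only those of NR4A1 and RXRA changed direction under another setting, both in the comparison across both lines. The mean NR4A1 difference of the permutation test reversed to −0.439 without the Rec-1 control and −0.252 without Rec-1 sgRNA 1 (range −0.439 to 0.649 with 1 library left out). In limma it reversed to −0.439 and −0.198, and RXRA to 0.691 and 0.006, without the same libraries (RXRA −1.035 without the Jeko control). With length adjustment, 2 of 17 receptors were called in Rec-1 (1 in the main analysis) and 7 of 17 between the sgRNA libraries (4). In the same order, all genes called were 2258 and 2990 of 10322. Without the filter 30 receptors were tested, and 5 were called in Rec-1, 3 for the interaction (0) and 8 between the sgRNA libraries. In that order, all genes called were 2313, 793 and 2947 of 18470. Receptors called numbered 2 of 10 at a minimum mean of 5 FPKM between the sgRNA libraries. With a minimum mean of 5, RXRA and NR1H3 are not tested. With 1 library left out they ranged from 0 to 1 across both lines, 0 to 1 in Rec-1 (ESR2 in place of NR2F6 without either Jeko sgRNA library) and 0 to 4 between the sgRNA libraries. All genes called were 12 without the filter across both lines (28), and with a minimum mean of 5, which tests fewer genes, 1083 in Rec-1 (2184), 318 for the interaction (791) and 1549 between the sgRNA libraries (2947). With 1 library left out these counts ranged from 11 to 2180, 657 to 2180, 75 to 454 and 803 to 2940. When the guide number was a replicate block, all genes called were 9 across both lines and 428 for the interaction, and 5 receptors, RARG added, were called between the sgRNA libraries. The calls of EGR1 and FOS in Jeko (limma adjusted p = 0.0686 and 0.0688) and of CLOCK between the sgRNA libraries (0.0736) were lost with the block. Same-numbered guides' deviations correlated at 0.0998 between lines, so the number is not taken as a pairing. The causes of the other shifts were not tested. Unknown depth limits NR4A2, NR4A3 and other genes under 1 FPKM.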
